A study of Mus musculus with 6 samples.

Results

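The arms of miR-192, miR-194 and miR-215, a group of microRNAs (miRNAs) of epithelial cells, were followed in mouse pancreas with pancreatitis, with and without HTG, the labels' short name for the condition of raised blood triglycerides. The group was chosen by name: 7 mature arms were looked for, and 6 of them were among the 1077 mature miRNAs of the count table. The arm miR-194-1-3p had no row there and is not analysed here. Small RNA of total RNA was sequenced in 3 control libraries (CON_AP, pancreatitis without HTG) and 3 HTG libraries (HTG_AP, pancreatitis with HTG). All 6 libraries came from pancreatitis tissue, so no healthy pancreas stands beside them. The strain, age and sex of the mice, the agent that caused the pancreatitis and the means by which HTG arose are not stated in the labels. Nor do they tie each library to its own animal, and p-values below reflect spread among libraries that may be technical repeats.

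A miRNA is cut from a hairpin RNA, and either strand of the hairpin stem, the 5p or the 3p arm, can be loaded into the silencing complex, where the seed (bases 2 to 8) pairs with target messenger RNAs. The miR-192 and miR-194 family is abundant in liver, gut and kidney epithelium. In human cells p53 is known to induce miR-192, miR-194 and miR-215, and in liver and gut miR-192 and miR-194 are linked to epithelial differentiation.

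The mature sequences show how the group is related. They are given 5′ to 3′ from RefSeq (GRCm38.p6), with the seed in capitals. All 7 names matched an entry. The prefix mmu marks mouse and is left out below.

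mmu-miR-192-5p: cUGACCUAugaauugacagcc
mmu-miR-215-5p: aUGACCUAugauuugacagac
mmu-miR-194-5p: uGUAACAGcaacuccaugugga
mmu-miR-192-3p: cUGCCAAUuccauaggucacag
mmu-miR-215-3p: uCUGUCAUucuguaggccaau
mmu-miR-194-2-3p: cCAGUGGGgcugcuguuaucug
mmu-miR-194-1-3p: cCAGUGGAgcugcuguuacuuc

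The arms miR-192-5p and miR-215-5p had the same seed, UGACCUA, and no other mouse miRNA of the RefSeq table shared it. Over their 21 bases they were identical at 18 and differed by C1A, A12U and C20A, with miR-192-5p written first and positions counted from its 5′ end. The seed of miR-194-5p, GUAACAG, was found in no other mature miRNA of that table. The 3p arms of the miR-194 hairpins differed by G8A, U19C, C20U and G22C, with miR-194-2-3p written first, and the first of these changes lies in the seed.

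The genes lie in 2 pairs. On chromosome 19, + strand, Mir194-2 (chr19:6264643-6264728) is followed after 115 bases by Mir192 (chr19:6264844-6264932), and neither overlapped another gene in GENCODE M21 on GRCm38. On chromosome 1, + strand, Mir194-1 (chr1:185313319-185313385) is followed after 195 bases by Mir215 (chr1:185313581-185313692). Mir194-1 lies in an intron and Mir215 overlaps an exon of the noncoding gene 2010103J01Rik, and both lie in an intron of Iars2, a protein-coding gene of the opposite strand. The mature miR-194-5p is the same from either miR-194 hairpin, so its reads cannot be assigned to a chromosome, while miR-194-2-3p comes from the chromosome 19 hairpin. The hairpins of the arms compared below are shown with both mature arms in capitals.

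Mir194-2: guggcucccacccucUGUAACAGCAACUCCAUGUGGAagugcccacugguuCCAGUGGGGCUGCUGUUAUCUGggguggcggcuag
Mir192: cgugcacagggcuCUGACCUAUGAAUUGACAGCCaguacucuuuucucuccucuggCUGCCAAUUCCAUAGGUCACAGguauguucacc
Mir215: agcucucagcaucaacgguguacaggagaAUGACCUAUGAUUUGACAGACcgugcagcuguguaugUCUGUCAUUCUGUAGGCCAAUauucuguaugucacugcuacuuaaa

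The libraries held 6514498 to 19773579 counts and 728 to 835 detected miRNAs. Acinar markers, which identify the enzyme-secreting cells of the pancreas, were abundant in each library: the 7 acinar miRNAs summed to 320461 to 438371 CPM in control and 318705 to 529371 CPM in HTG. Most of each sum was miR-148a-3p, with 281633 to 413975 CPM in control and 298081 to 492049 CPM in HTG. Among the controls miR-148a-3p was lowest in control 3, while each miR-216 and miR-217 arm of the list was highest there. The sum thus follows miR-148a-3p rather than the list as a whole. CPM is the count scaled to library size, divided here by the scaling factor of the library (trimmed mean of M-values, TMM). Since all arms are 21 or 22 bases long, their CPM values are set side by side without a length term. Reads are not molecules, because ligation and PCR can favour some sequences. The libraries numbered 1 differed alike from their groups. Their deviations from group means correlated at 0.47, against 0.25 or less for each other pair of a control and an HTG library. Of 488 tested miRNAs, 124, or 25.4%, had the highest level of each group in the library numbered 1. That count was not made for other pairs of libraries.

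The 5p arms of miR-192 and miR-194 held nearly all reads of the group. They took 97.9% to 99.6% of its counts in each library, and the whole group made up 0.105% ± 0.0249 of the control and 0.0867% ± 0.00399 of the HTG library totals (SD, n = 3 each). The difference of -0.0182 percentage points rested in part on control 2, the highest library: it was -0.00467 without control 2 and -0.0292 without control 1. By mean CPM, miR-194-5p ranked 83 and miR-192-5p 90 of 1077 miRNAs. The 3p arms and miR-215 lay far lower, with miR-194-2-3p at rank 362, miR-215-5p at 414, miR-192-3p at 452 and miR-215-3p at 1051. Of the 6 arms, 4 passed the filter on low counts and were tested, and miR-215-5p and miR-215-3p did not pass.

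**Figure D1:**
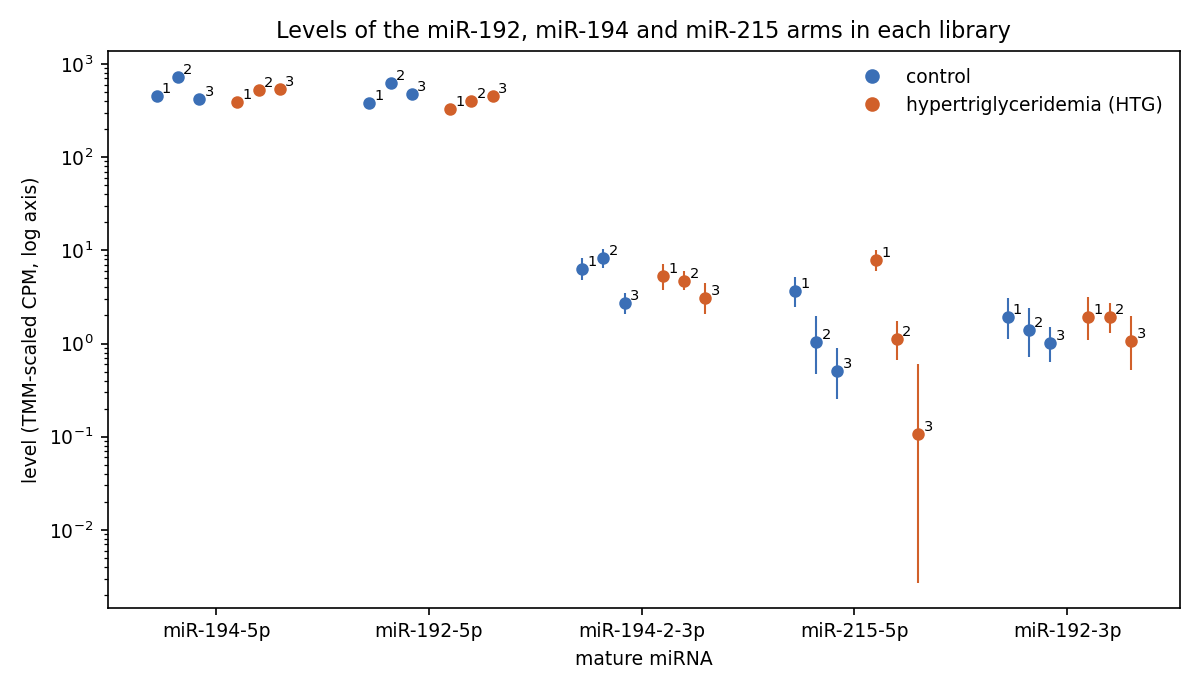
Level of 5 arms in each library, in TMM-scaled CPM on a log axis; each point is 1 library with its number, and bars are exact 95% Poisson intervals of the count, covering counting error only. The 5p arms of miR-192 and miR-194 sit between 328 and 724 CPM in both groups, and miR-215-5p spreads from 0.108 to 7.88 CPM.

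None of the 4 tested arms differed between pancreatitis with and without HTG at an adjusted p of 0.05 in edgeR. This was also so for each of the 488 tested miRNAs (0 called, 0%; 12, or 2.46%, at an unadjusted p under 0.05, and 27 with the replicate number as a block). The smallest adjusted p was 0.996. With 1 of 4 arms higher and 3 lower, the median log2 fold change of the tested arms was -0.23, against -0.01 over all tested miRNAs, of which 239 were higher and 249 lower. No arm had groups that did not overlap, and over all tested miRNAs 39, or 7.99%, had such groups. In bulk tissue, fewer cells of a type and less of the miRNA per cell cannot be told apart.

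The most abundant arm, miR-194-5p, known to target N-cadherin in liver cancer cells, stood at 455, 724 and 426 CPM in controls 1, 2 and 3. In HTG 1, 2 and 3 it stood at 387, 528 and 541 CPM. Control 2 was the highest library, and the groups overlapped, since controls 1 and 3 lay below HTG 2 and 3. The means were 535 ± 165 and 485 ± 85.7 CPM (SD, n = 3 each), with a log2 fold change of -0.14 ± 0.25 (SE; 95% interval -0.73 to 0.45; edgeR adjusted p = 0.996). The interval reaches from 0.603-fold to 1.37-fold of the control level. The sign depended on single libraries: the log2 fold change was 0.14 without control 2 and 0.04 without HTG 1.

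For miR-192-5p, the arm whose seed miR-215-5p shares, the controls held 382, 623 and 471 CPM. The HTG libraries held 328, 402 and 457 CPM. Control 2 was again the highest and HTG 1 the lowest library, and the groups overlapped, since control 1 lay below HTG 2 and 3. The place of HTG 1 depended on the TMM factor. By share of library counts, HTG 2 (0.0355%) and control 1 (0.0374%) lay below HTG 1 (0.0389%). The means were 492 ± 122 and 395 ± 64.9 CPM (SD, n = 3 each), and the log2 fold change was -0.32 ± 0.23 (SE; 95% interval -0.85 to 0.21; edgeR adjusted p = 0.996). That interval covers 0.556-fold to 1.16-fold of control. Without control 2 the value was -0.11. Same-numbered libraries were also compared as pairs, though the labels give no source of pairing and these differences were added after seeing the data. In TMM-scaled CPM miR-192-5p was lower in HTG in 3 of 3 pairs. The mean log2 difference was -0.30 ± 0.30 (SD of the pairs; exact sign-flip permutation p = 0.25, the smallest that 3 pairs allow). By share of library counts the pair numbered 1 went the other way, with 0.0374% in control and 0.0389% in HTG. In TMM-scaled CPM the pairs of other arms were not all lower in HTG. Both miR-194-5p (-0.11 ± 0.41) and miR-194-2-3p (-0.30 ± 0.50) were lower in 2 of 3 pairs. The arm miR-215-5p was lower in 1 of 3 (-0.34 ± 1.71) and miR-192-3p in 0 of 3 (0.19 ± 0.24). The summed share of the group and the ratio of miR-192-5p to miR-194-5p, which do not use the TMM factor, were each lower in 2 of 3. The share of miR-215-5p in its sum with miR-192-5p was lower in 1 of 3.

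**Figure D2:**
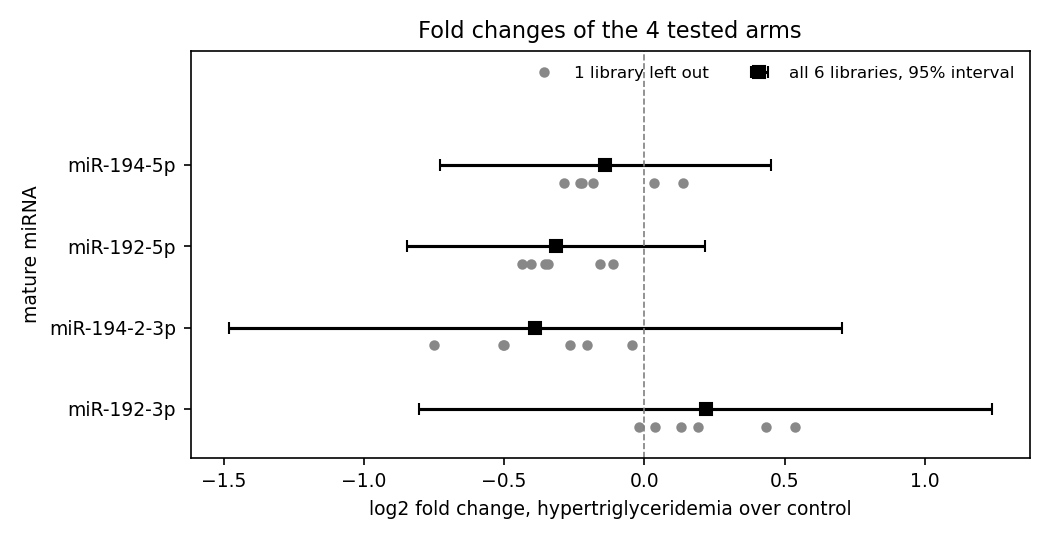
Log2 fold change of the 4 tested arms, HTG over control, from edgeR. Squares with bars are the values of all 6 libraries with 95% intervals, and grey points are values with 1 library left out. All 4 intervals include 0, and the interval of miR-192-5p runs from -0.85 to 0.21.

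The 3p arms were measured with far fewer reads. The chromosome 19 arm miR-194-2-3p had 56, 72 and 60 counts in controls 1, 2 and 3, or 6.36, 8.30 and 2.74 CPM. In HTG 1, 2 and 3 it had 41, 77 and 29 counts, or 5.29, 4.75 and 3.12 CPM. In both groups the library numbered 3 was the lowest, and the HTG values all lay within the control range. The log2 fold change was -0.39 ± 0.47 (SE; 95% interval -1.48 to 0.70; edgeR adjusted p = 0.996), and it was -0.75 without control 3 and -0.04 without control 2.

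Counts of miR-192-3p, the minor arm of the miR-192 hairpin, were 17, 12 and 22 in the controls and 15, 31 and 10 in the HTG libraries. These are 1.93, 1.38 and 1.01 CPM, and 1.94, 1.91 and 1.08 CPM. The groups overlapped across their range, with a log2 fold change of 0.22 ± 0.44 (SE; 95% interval -0.80 to 1.24; edgeR adjusted p = 0.996). The value was -0.02 without control 3.

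Within the hairpins, the 5p arm outnumbered the 3p arm in each library. The 3p arm made up 0.503%, 0.221% and 0.213% of the miR-192 arm counts in controls 1, 2 and 3, and 0.588%, 0.473% and 0.235% in HTG 1, 2 and 3. Both libraries numbered 1 were highest in their group. The group means were 0.312% ± 0.165 and 0.432% ± 0.180 (SD, n = 3 each), a difference smaller than either SD. Within same-numbered libraries the share was higher in HTG in 3 of 3 pairs, by 0.119 ± 0.119 percentage points (SD of the pairs; exact two-sided sign-flip permutation p = 0.25, the smallest that 3 pairs allow). The labels give no source for these pairs.

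Of the summed counts of miR-194-5p and miR-194-2-3p, the 3p arm took 1.38%, 1.13% and 0.640% in controls 1, 2 and 3. It took 1.35%, 0.891% and 0.573% in HTG 1, 2 and 3. In both groups the library numbered 1 had the highest and the library numbered 3 the lowest share. The exact binomial intervals (95%, Clopper-Pearson) of control 1 (1.04% to 1.79%) and control 3 (0.488% to 0.823%) did not overlap, nor did those of HTG 1 (0.971% to 1.83%) and HTG 3 (0.384% to 0.821%). The group means, 1.05% ± 0.377 and 0.938% ± 0.391 (SD, n = 3 each), differed by less than either SD. Within same-numbered libraries, again a pairing that the labels do not give, the share was lower in HTG in 3 of 3 pairs. The mean difference was -0.113 ± 0.113 percentage points (SD of the pairs; exact sign-flip permutation p = 0.25). As miR-194-5p may also come from the chromosome 1 hairpin, this share is not an arm ratio of 1 hairpin.

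Of the ratios between arms followed here, that of the abundant arms to each other varied least, from 76.1% to 111%. Counts of miR-192-5p were 84.1%, 86.1% and 111% of those of miR-194-5p in controls 1, 2 and 3. In HTG 1, 2 and 3 they were 84.7%, 76.1% and 84.4%. Control 3 was the single library with more miR-192-5p than miR-194-5p. The mean log2 ratio was -0.11 ± 0.22 in control and -0.29 ± 0.09 in HTG (SD, n = 3 each). The difference was -0.19, somewhat larger in size than the pooled SD of 0.17, and it was -0.06 without control 3.

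**Figure D3:**
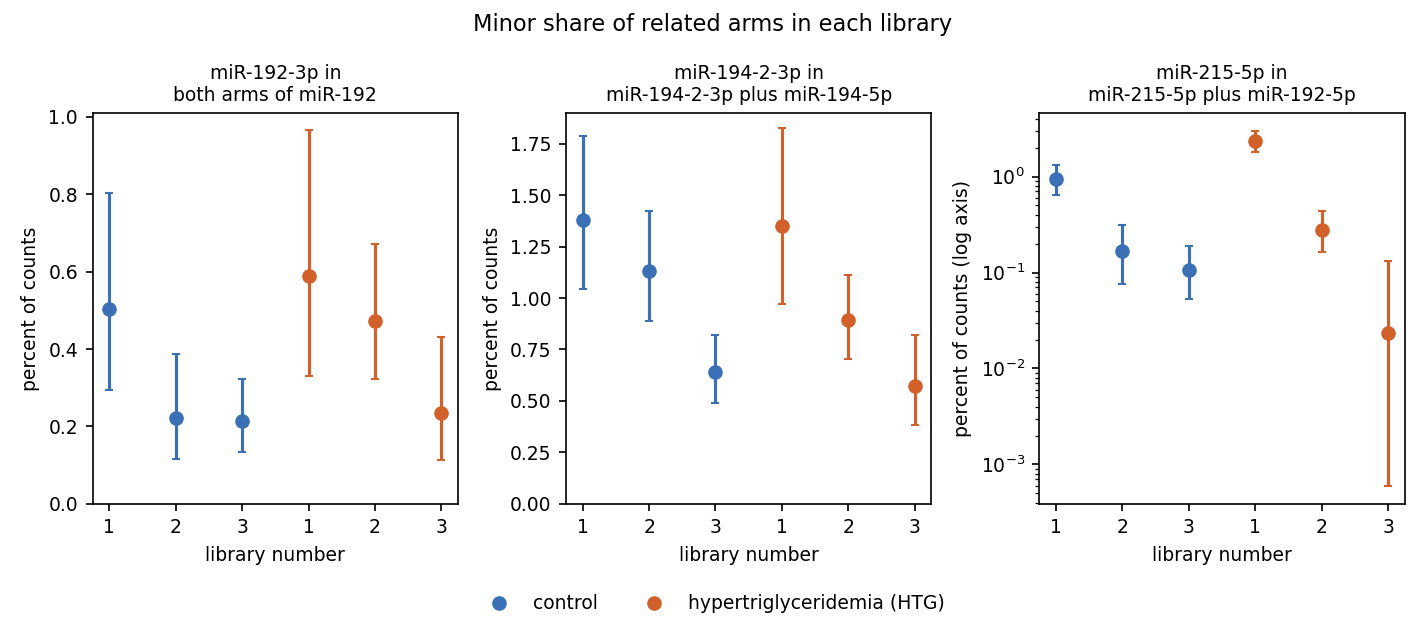
Percent of counts of the less abundant of 2 related arms in each library: miR-192-3p within miR-192, miR-194-2-3p beside miR-194-5p, and miR-215-5p beside miR-192-5p (log axis). Points are libraries, coloured by group, and bars are exact 95% binomial intervals. In all 3 panels the library numbered 1 is highest in both groups, and miR-215-5p ranges from 0.0235% to 2.35%.

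Of the arms detected in every library, miR-215-5p varied the most and followed neither miR-192-5p nor miR-194-5p. It had 32, 9 and 11 counts in controls 1, 2 and 3, or 3.64, 1.04 and 0.503 CPM. In HTG 1, 2 and 3 it had 61, 18 and 1 counts, or 7.88, 1.11 and 0.108 CPM. Both libraries numbered 1 stood above the other 4, and HTG 1 was 15.7 times control 3, the lowest library with more than 3 counts (exact 95% interval 8.17 to 33.0, counting error only). Against the single count of HTG 3 the ratio was 73.2, with an interval from 12.7 to 2940. The highest level was 1.90 times the lowest for miR-192-5p and 1.87 times for miR-194-5p. The spread went beyond counting error within a group: the exact 95% Poisson interval was 2.49 to 5.13 CPM in control 1 and 0.251 to 0.899 CPM in control 3. In HTG it was 6.02 to 10.1 CPM in library 1 and 0.657 to 1.75 CPM in library 2. These intervals, and those of the shares above, cover counting error only, as PCR copies of a molecule are counted again.

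Between the groups miR-215-5p did not differ beyond its spread. The means were 1.73 ± 1.68 and 3.03 ± 4.23 CPM (SD, n = 3 each). A two-sided exact permutation test gave p = 0.8, where 3 against 3 libraries allow no p below 0.1. Fitting it in edgeR without the filter gave a log2 fold change of 0.79 ± 0.81 (SE; adjusted p = 0.938, and 0.752 or more in each setting that fitted it). Without control 1, where it passed the filter, the value was 2.01 ± 1.44, and without HTG 1 it was -1.30 ± 1.13 (SE). The other arm, miR-215-3p, had 1 count in HTG 2 and 0 in the other 5 libraries, where 3 counts, the limit that a count of 0 allows, correspond to 0.137 to 0.387 CPM.

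Because of the 3 differing bases, reads of miR-192-5p could in principle be counted for miR-215-5p or the reverse if mismatches were allowed, which the sources used here do not state. The counts of miR-215-5p were 0.952%, 0.166% and 0.107% of those of miR-192-5p in controls 1, 2 and 3. They were 2.40%, 0.276% and 0.0235% in HTG 1, 2 and 3. The ratio was thus not constant over the libraries, and the part of shared reads in these values was not tested. Together the arms with the seed UGACCUA were supplied almost wholly by miR-192-5p, since miR-215-5p made up at most 2.35% of their sum (95% interval 1.80% to 3.01%, Clopper-Pearson, HTG 1).

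Marker miRNAs of other cell types were read in the same libraries. Of the 8 leukocyte markers, 6 had the highest level of each group in the library numbered 1, as miR-215-5p and 25.4% of all tested miRNAs did. For miR-192-3p this order lay within counting error, with 1.94 CPM in HTG 1 (15 counts) against 1.91 CPM in HTG 2 (31 counts). The lymphocyte miRNA miR-150-5p stood at 797, 66.2 and 103 CPM in the controls and at 1726, 46.7 and 46.2 CPM in the HTG libraries. The summed leukocyte level ran from 2353 to 4589 CPM in control, highest in control 2, and from 1176 to 6257 CPM in HTG. It included the myeloid miR-223-3p, which was highest in control 2 at 3510 CPM. No leukocyte marker was at 0 in any library.

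Erythroid markers were highest in the libraries numbered 1 for 3 of 3 miRNAs, with sums of 293 to 723 CPM in control and 364 to 849 CPM in HTG. The smooth muscle and mesenchymal markers were so for 2 of 5, with sums of 16422 to 60624 and 19131 to 35352 CPM. The liver marker miR-122-5p, abundant in hepatocytes that also express miR-192 and miR-194, was low throughout. It stood at 7.50, 5.996 and 1.78 CPM in controls 1, 2 and 3 and at 6.58, 1.11 and 1.18 CPM in HTG 1, 2 and 3, again highest in both libraries numbered 1, and the other liver marker, miR-122-3p, had no row. Of the remaining lists, the islet markers were highest in both libraries numbered 1 for 1 of 5 members, with sums of 36408 to 44104 CPM in control and 38217 to 50136 CPM in HTG. The striated muscle markers were so for 1 of 4, with sums of 191 to 603 and 193 to 249 CPM, and the endothelial markers for 0 of 2, with 7818 to 9321 and 8491 to 8683 CPM. The acinar list had 0 of 7 and the other epithelial list 0 of 12 members highest in both libraries numbered 1. The part of these cell types in the level of miR-215-5p was not tested.

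**Figure D4:**
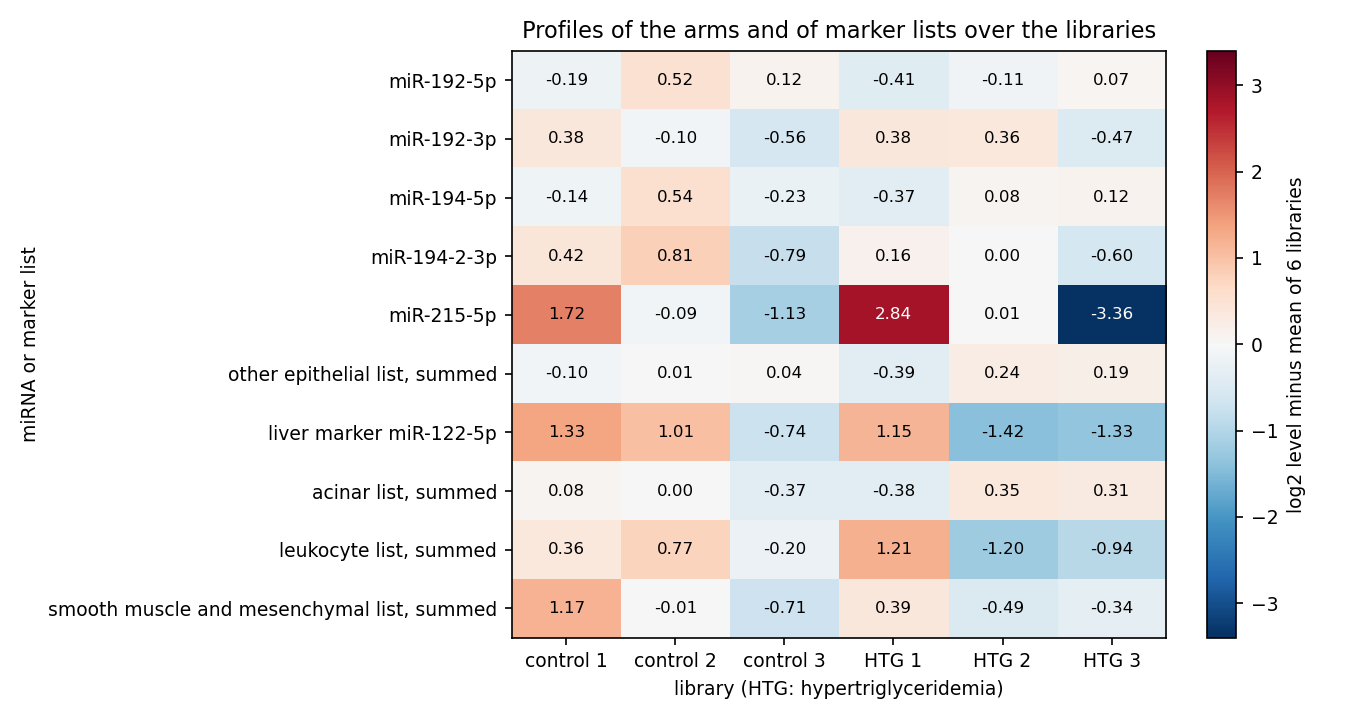
Log2 level of each arm, and of the summed markers of cell types, minus its mean over the 6 libraries (colour and printed value). The acinar sum is mostly miR-148a-3p. The arm miR-215-5p lies at 1.72 in control 1 and 2.84 in HTG 1 and at -3.36 in HTG 3, while miR-192-5p stays between -0.41 and 0.52.

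Other epithelial miRNAs were taken from a list of 12, headed by the miR-200 family, which represses the ZEB factors of epithelial to mesenchymal transition. All 12 were tested, 8 higher and 4 lower, with 0 called and a median log2 fold change of 0.05. The 4 most abundant were miR-200b-3p (20335 ± 1113 and 20220 ± 4808 CPM, SD, n = 3 each), miR-200a-3p (9395 ± 413 and 10802 ± 2683), miR-200c-3p (6742 ± 905 and 6821 ± 1271) and miR-429-3p (2337 ± 84.8 and 2445 ± 483). The summed level of the list was 38513 to 42319 CPM in control and 31537 to 48707 CPM in HTG, with HTG 1 lowest. In TMM-scaled CPM, miR-192-5p, miR-194-5p and the summed acinar list (318705 CPM, against 320461 CPM in control 3) were also lowest in HTG 1. By share of library counts the acinar sum was lowest in control 3 and miR-192-5p in HTG 2. By that share miR-194-5p was lowest in control 1 (0.0445%, against 0.0460% in HTG 1). Of the 6 arms of miR-34, which p53 induces, 2 were higher and 4 lower with 0 called and a median of -0.07. The most abundant of them, miR-34a-5p, stood at 818 ± 26.7 and 854 ± 319 CPM (SD, n = 3 each), and it too was lowest in HTG 1, at 486 CPM. The next of them, miR-34c-5p, stood at 28.7 ± 5.68 and 27.6 ± 6.09 CPM, followed by miR-34a-3p (2.69 ± 0.617 and 1.96 ± 1.35) and miR-34b-3p (2.06 ± 1.31 and 1.97 ± 0.962).

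The profile of miR-192-5p over the 6 libraries was compared with those of 297 other miRNAs with a mean of at least 10 CPM and a count in every library, by the root mean square difference of centred log2 levels. The closest were miR-205-5p (0.10), an epithelial miRNA of squamous and basal cells, and miR-3105-3p (0.13), miR-322-5p (0.16), miR-21a-5p (0.18) and miR-203-3p (0.18), the last an epithelial miRNA of skin. No member of the miR-200 family was among these closest. Of the 12 listed epithelial miRNAs, 8 were higher in HTG with 0 called, while miR-205-5p and miR-203-3p were lower. The median over all 297 was 0.36, and miR-194-5p lay at 0.16, with 3 miRNAs closer. Controls 1, 2 and 3 held 10.3, 15.9 and 13.1 CPM of miR-205-5p and HTG 1, 2 and 3 held 9.17, 9.68 and 10.8 CPM, in the same order of libraries within each group as miR-192-5p. For miR-194-5p the closest were miR-1191a (0.13), miR-18a-5p (0.14), miR-130b-5p (0.17), miR-3105-3p (0.18) and miR-152-3p (0.19), with a median of 0.38. Here miR-192-5p lay at 0.16, with 2 miRNAs closer. These distances describe 6 libraries that share depth and scaling, and the closest profiles were picked as the smallest of 297 differences.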

How the data were processed

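Small RNA of mouse pancreatitis tissue was extracted with Trizol and prepared by the NEXTflex small RNA kit, per the labels' protocols. The submitters' processing notes name Bowtie 1.1.1 and GRCm38. Trimming, the miRNA annotation, mismatches and multiple matches are not stated in the sources used. The authors deposited whole-number read counts per mature miRNA and, beside them, TPM (counts scaled to library size), per the file headers. The counts of no arm with at least 30 counts in total equalled those of another miRNA in all libraries.

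Counts were tested with edgeR 4.0.16 (R 4.3.3; filterByExpr, at least 10 counts and 15 in total; TMM scaling; two-sided quasi-likelihood test, Benjamini-Hochberg at 0.05) over all miRNAs, after a test on simulated data. Alternatives were RLE scaling or library size alone, no filter, DESeq2 1.42.0, limma 3.58.1 on log2(TPM + 1), a replicate block and libraries left out. Log2 ratios used a pseudocount of 0.5. Deviations of same-numbered libraries from their group means correlated at 0.47, 0.19 and 0.25, so the block was fitted with the numbers as pairs. Control 2 with HTG 3 (0.21) and control 3 with HTG 2 (0.23) correlated as much, so that only the pair numbered 1 stood out, and the labels give no source of pairing. Differences within pairs were added after seeing the data. The arms and lists were chosen with earlier results of these data known. The text names all arms, up to 4 most abundant members of the epithelial and p53 lists, the 5 closest profiles and markers that move with an arm.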

Additional observations from a re-analysis of the deposited data

How the results depend on the processing

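The fold changes of miR-192-5p and miR-194-2-3p stayed below 0 under all 13 alternatives, from -0.44 to -0.11 and from -0.75 to -0.04, and no arm was called under any. The sign turned for miR-194-5p without control 2 (0.14) and without HTG 1 (0.04), and for miR-192-3p without control 3 (-0.019); the cause was not tested. With 1 library left out they ranged from -0.29 to 0.14 and from -0.02 to 0.54. With the replicate block miR-192-5p was at -0.30 and miR-194-5p at -0.12, and the block changed no adjusted call, while the unadjusted calls over all miRNAs rose from 12 to 27. They were 32 without the filter, 19 in DESeq2, 37 without control 1, 45 without HTG 1 and 70 without both libraries numbered 1. Adjusted calls over all miRNAs were 0 to 2 with 1 library left out, 1 without the filter and 4 without both libraries numbered 1. Differences (HTG minus control) of the log2 ratios and of the summed share moved by less than the pooled within-group SD. Leaving out 1 of 3 libraries cannot move them by more than that SD, so this limit says nothing about stability. With 1 library left out some of these differences changed sign or size. That of miR-194-5p to miR-194-2-3p, 0.18 with all libraries, was -0.06 without control 1 and -0.14 without HTG 3. That of miR-215-5p to miR-192-5p, 0.12 with all libraries, ran from -1.41 to 1.64, that of miR-192-5p to miR-192-3p from -0.90 to -0.22, and that of the share from -0.0292 to -0.00467 percentage points. Depth limits the 3p arms and miR-215: at 10 to 77 counts the counting error alone was 11.4% to 31.6% for the 3p arms of miR-192 and miR-194.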

Other observations

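The spread of the abundant arms was close to that of miRNAs of like level. Among 89 tested miRNAs with a mean of 100 to 1000 CPM, a range chosen after the levels were seen, the median SD of log2 levels over the 6 libraries was 0.25. It was 0.32 for both miR-192-5p, with 52 of the 89 below it, and miR-194-5p, with 53 below it.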
